A study of Mus musculus with 20 samples.

Results

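Gpr151-high habenula neurons are described here at postnatal days 4 and 7 (P4 and P7): 317 wells out of the 1229 that were kept on the 4 plates of these stages, and out of 4811 kept on the 20 plates of the whole study. A well entered the group with at least 5 counts of Gpr151 and fewer than 3 of Cck in the deposited table of total counts. The members were thus chosen by their counts of these 2 genes. A well was kept when it held 1000 or more counts (spike-ins and mitochondrial transcripts aside) from 500 or more genes, and when mitochondrial transcripts made up no more than 20% of it. The study followed the developing mouse habenula with Cel-seq2, a method in which each well of a plate receives its own barcode and each transcript a unique molecular identifier (UMI). P4 and P7 had 2 plates of 384 wells each, all from habenula of the Brn3a-tauLacZ line. This line carries a tau-lacZ reporter at Brn3a (now Pou4f1), so every well compared here shares that background. The genotype at the locus, the sex, the gate of any sort, and whether the 2 plates of a stage came from separate mice are not stated. The plate was therefore the replicate, wells were never counted as replicates, and the p-values measure only the spread between these plates. Part of that spread may be technical. The sex-linked genes given below show that the P4 plates held cells of opposite sex, so between them it also holds differences between animals.

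The habenula is a small nucleus of the dorsal diencephalon that relays forebrain signals to the midbrain. Its medial division projects to the interpeduncular nucleus, releases glutamate together with acetylcholine or substance P, and carries dense nicotinic receptors, while its lateral division acts on dopamine and serotonin neurons. Gpr151 is an orphan G protein-coupled receptor found in habenular axons and best known as a habenula marker. Oprm1, the mu opioid receptor, and Htr4, a serotonin receptor, are likewise G protein-coupled; Col25a1 is a transmembrane collagen, and Amigo2 a leucine-rich repeat adhesion protein. Cck encodes the neuropeptide cholecystokinin.

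All 317 wells met a neuron rule that played no part in choosing them: at least 10 counts of 12 pan-neuronal genes, and more than 3 times the sum of the nonneuronal lists. On the same plates 821 other kept wells were neuron wells by that rule and 91 were not. The Gpr151-high wells numbered 65 on P4 plate 1, 58 on P4 plate 2, 106 on P7 plate 1 and 88 on P7 plate 2, and values are given in that plate order below. Their median depth was 21683, 20598, 22501 and 18981 counts per well, against 18492, 19381, 23160 and 16156 in the other neuron wells. Median mitochondrial shares lay between 4.20% and 5.24%, and unspliced counts made up 21.6% to 24.7% of the total. Well numbers 1 to 384 recur on all 4 plates by design, so barcodes cannot show whether plates shared cells.

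Levels below are CPM, the count of a gene scaled to a common total of 1000000 after summing the wells of a class on a plate. The summed neuron list was at 12292 to 14084 CPM in the Gpr151-high wells. Astrocyte genes summed to 13.2 to 33.4 CPM, the oligodendrocyte lineage to 14.7 to 25.8, endothelial genes to 3.74 to 14.1, mural and fibroblast genes to 4.49 to 50.7, microglia to 23.1 to 29.3, ependymal genes to 2.25 to 11.1 and erythroid genes to 0 to 1.32. Among these lists the genes at 0 on every plate were Mog, Kcnj8, Ttr, Hba-a1 and Hbb-bt. The medial habenula list, which holds Tac2, Nwd2, Pou4f1 and nicotinic subunits, summed to 7676 to 8792 CPM and the lateral habenula list to 133 to 235 CPM. In the other neuron wells the sums were 6405 to 7493 and 261 to 450 CPM. Nwd2 weighs most in the medial sum, with a median of 126 counts per Gpr151-high well, against 6.00 for Tac2 and 9.01 for Pou4f1. The thalamic list summed to 1320 to 1482 CPM, against 1322 to 1763 in the other neuron wells, with its defining gene Gbx2 at 0 throughout.

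Gpr151 (chromosome 18, 42577881 to 42579652, minus strand, GRCm38) chose the wells, so its counts are a description only. Per well, the lowest, median and highest Gpr151 counts were 5.00, 12.0 and 29.1 on P4 plate 1. The corresponding counts were 5.00, 9.51 and 39.2 on P4 plate 2, 5.00, 15.5 and 73.6 on P7 plate 1, and 5.00, 13.0 and 52.3 on P7 plate 2. Gpr151 was thus not confined to the chosen wells. At least 1 UMI was seen in 47.3% of the other neuron wells and in 14 of 91 non-neuron wells (15.4%), whose median depth was 10198 to 12220 counts. Summed levels were 529, 491, 721 and 733 CPM in the Gpr151-high wells and 36.2, 41.8, 66.6 and 108 CPM in the other neuron wells.

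**Figure D1:**
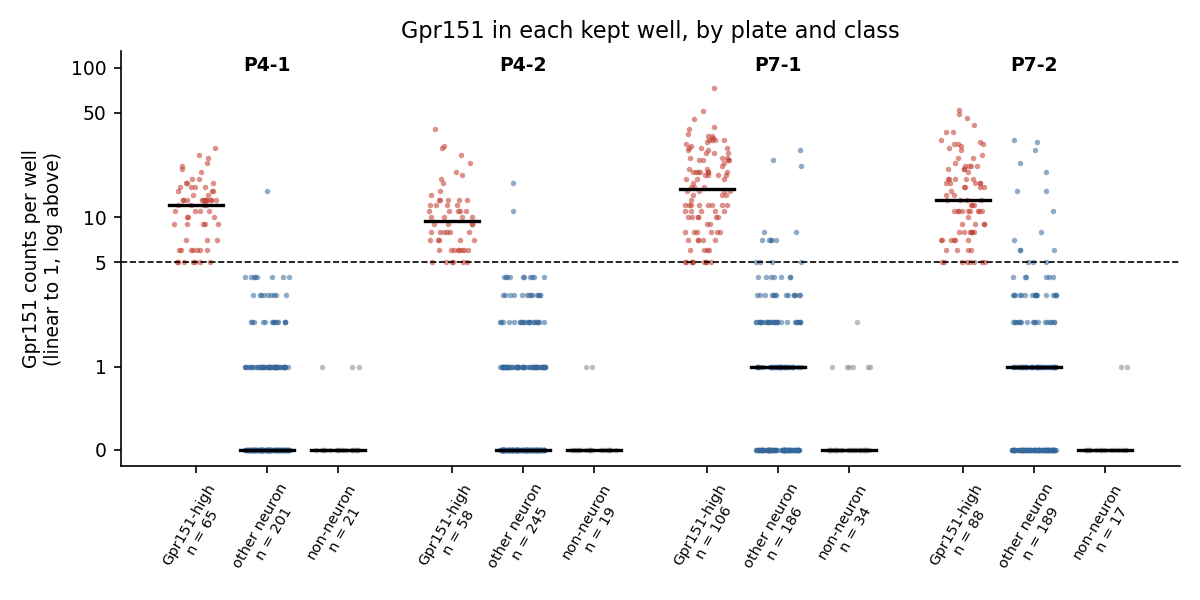
Gpr151 counts in each kept well (vertical axis, linear to 1 and logarithmic above) for each plate and class; black bars are medians and the dashed line is the 5-count threshold. The Gpr151-high wells reach 73.6 counts on P7 plate 1; the other neuron wells above the line held at least 3 Cck counts.

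The share of kept wells in the group was 22.6% on P4 plate 1 (exact Clopper-Pearson 95% interval 17.9% to 27.9%) and 18.0% on P4 plate 2 (14.0% to 22.7%). At P7 it was 32.5% (27.5% to 37.9%) and 29.9% (24.8% to 35.5%). Both P7 plates lay above both P4 plates. With 2 plates a stage no exact permutation test can reach p under 0.05, so none is given, and the intervals cover counting error only. A count threshold depends on depth: with wells thinned to 5000 UMIs first and shallower wells left out, the shares were 6.77%, 2.44%, 12.0% and 15.3% of the remaining 266, 287, 317 and 248 wells. How the wells were loaded is not given, so shares of wells need not be shares of tissue.

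At the threshold itself, the 30 neuron wells with 5 Gpr151 UMIs had 407 CPM of Col25a1, 117 of Amigo2, 76.8 of Oprm1 and 64.2 of Htr4. The 29 wells with 4 had 339, 143, 63.0 and 33.4 CPM, so Amigo2 was higher just outside the threshold. The Cck criterion removed 33 wells with at least 5 Gpr151 counts, 3 of them at P4 and 30 at P7. Those 33 wells held 1321 CPM of Col25a1 and 520 CPM of Oprm1 but 39.6 CPM of Htr4.

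The 4 other proposed marker genes were named with results of these data known and are given without a test. Col25a1 (chromosome 3, 130131501 to 130599877) was at 844, 998, 1000 and 981 CPM, against 207, 170, 403 and 451 CPM in the other neuron wells. Amigo2 (chromosome 15, 97244125 to 97247287) was at 273, 215, 374 and 332 CPM against 56.7, 57.3, 80.1 and 81.5. All 4 plates of the Gpr151-high wells exceeded all 4 of the other neuron wells for both genes. Oprm1 (chromosome 10, 6758506 to 7038198) was at 186, 326, 235 and 294 CPM against 37.9, 20.4, 103 and 139. Htr4 (chromosome 18, 62324204 to 62496577) was at 104, 124, 167 and 138 CPM against 20.5, 28.9, 29.8 and 24.3. The ratio of plate means was 3.11 for Col25a1, 4.33 for Amigo2, 3.48 for Oprm1 and 5.15 for Htr4. All 4 genes were therefore higher in the chosen wells, as the label says. Amigo2 overlaps Pced1b and Oprm1 overlaps Ipcef1, both on the opposite strand, and strand use in counting is not given, so reads of these pairs cannot be told apart.

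Detection differed between the markers. Col25a1 had a UMI in 96.5% of the Gpr151-high wells and Amigo2 in 93.7%. The other neuron wells had 63.6% and 56.5%, and the shallower non-neuron wells 36.3% and 23.1%. Htr4 was seen in 73.5% and Oprm1 in 67.5%, against 24.7% and 29.2% of the other neuron wells and 7.69% of non-neuron wells for each. After thinning to 5000 UMIs, Col25a1 was seen in 91.6%, Amigo2 in 69.0%, Oprm1 in 51.9% and Htr4 in 39.0% of the Gpr151-high wells. In the thinned other neuron wells these shares were 42.8%, 25.3%, 17.8% and 9.43%. Col25a1 was thus the most widely detected of the 4; detection follows the level of a gene as well as its spread over wells.

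Set against all 912 other kept wells, 1596 of the 12848 genes tested (12.4%) differed at an adjusted p of at most 0.05 in edgeR's quasi-likelihood test with the plate as a block and Benjamini-Hochberg adjustment: 649 were higher (5.05%) and 947 lower (7.37%). Npr1, the receptor for atrial natriuretic peptide, was higher at 113, 133, 234 and 182 CPM against 28.7, 37.2, 43.3 and 40.5 CPM (log2 difference 2.15 ± 0.10 SE, adjusted p = 6.7e-09, edgeR). Among the 10 largest falls, Hes1, a Notch target, fell by 5.35 on the log2 scale, the glial lipid carrier gene Fabp7 by 5.23, the basement membrane gene Nid1 by 5.05 and the water channel gene Aqp4 by 4.93. Gpr17, which overlaps Lims2, fell by 4.89. Genes of the astrocyte list fell in 6 of 6 tested cases and those of the oligodendrocyte lineage in 6 of 6. These falls set neurons against a mixture that holds non-neuron wells. The next comparison therefore used the 821 other neuron wells alone. Without P7 plate 1 the count of called genes was 948.

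Against other neurons, 1194 of 12551 genes (9.51%) passed the same edgeR test, 559 higher (4.45%) and 635 lower (5.06%), and the median log2 difference over all genes tested was 0.00. In 3273 of the 12551 genes (26.1%) the Gpr151-high wells lay on the same side on all 4 plates. Classes said below not to overlap had all 4 plates of 1 class above all 4 of the other. That measure is stricter, its share of all genes is not given here, and it is used as a description only. The count was 684 without P7 plate 1, and 1459 when wells with at least 3 Cck counts were left out of the other neurons, an alternative chosen after seeing the data. Of the 1194 genes 1093 (91.5%) were also called in that fit, in the same direction. In unspliced counts alone the calls of Bsn, Calb1, Gnas, Gng8, Hopx, Kcnk2, Nr4a2, Pcdh10, Prox1 and Robo3 were lost, and with no plate block those of Calb1, Gabrb1, Gnas, Gng3, Hopx, Nr4a2, Nwd2, Pcdh9, Rgs4, Robo3 and Scg2. Rgs20 was lost in spliced counts. The plot of levels by plate shows the genes of this comparison that span the range of abundance.

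**Figure D2:**
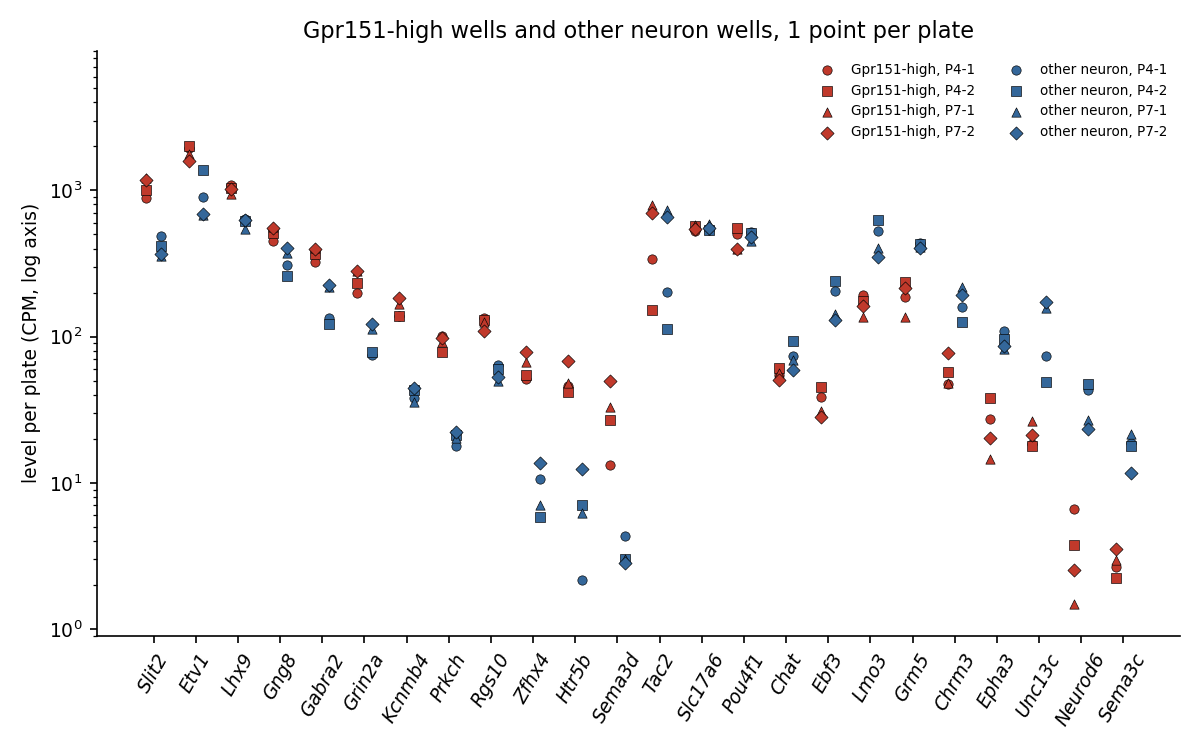
Level in CPM (log axis) of 24 genes, 1 point per plate, in Gpr151-high wells (red) and other neuron wells (blue); symbols mark the plates. Slit2 lies at 890 to 1220 CPM in the Gpr151-high wells and at 357 to 486 CPM in the other neurons, whereas Slc17a6 and Pou4f1 overlap.

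The largest rise among genes that met the naming rule given at the end was in Sema3d, a secreted semaphorin that steers axons. Sema3d (chromosome 5, 12383385 to 12588948) was at 13.2, 27.0, 32.9 and 49.5 CPM against 4.34, 3.03, 3.0 and 2.83 CPM in the other neurons. The log2 difference was 3.15 ± 0.30 SE with an adjusted p of 6.3e-06 in edgeR, and the classes did not overlap. A UMI of Sema3d was seen in 20.5% of the Gpr151-high wells, against 4.51% of the other neuron wells and 8.8% of non-neuron wells. Slit2, a secreted repellent of the Slit and Robo guidance system, was higher at 890, 1011, 1220 and 1185 CPM against 486, 414, 357 and 367 (1.42 ± 0.11 SE, adjusted p = 9.1e-07). Slit2 (chromosome 5, 47983138 to 48307733, plus strand) was detected in 99.4% of the Gpr151-high wells, against 88.2% of the other neuron wells and 67.0% of the non-neuron wells. It contains Mir218-1 and non-coding models within its bounds, whose reads cannot be separated from it.

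The 250 bases before the RefSeq starts of these 2 guidance genes are given because both rose in the Gpr151-high wells and lie on the same chromosome. Slit2 is read from chr5:47982905-47983154 and Sema3d from chr5:12382916-12383165, both GRCm38.p6 and plus strand, 5′ to 3′; capitals mark a TATAAA match.
Slit2: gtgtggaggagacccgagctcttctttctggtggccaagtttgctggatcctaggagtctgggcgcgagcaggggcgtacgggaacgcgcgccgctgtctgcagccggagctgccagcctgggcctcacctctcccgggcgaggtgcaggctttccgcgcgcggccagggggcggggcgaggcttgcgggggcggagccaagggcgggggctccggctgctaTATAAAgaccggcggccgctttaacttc
Sema3d: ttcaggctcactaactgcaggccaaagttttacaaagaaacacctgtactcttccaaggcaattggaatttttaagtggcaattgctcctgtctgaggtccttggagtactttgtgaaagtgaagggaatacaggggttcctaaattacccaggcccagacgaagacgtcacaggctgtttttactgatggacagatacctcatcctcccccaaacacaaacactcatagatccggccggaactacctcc
The Slit2 stretch is 69.6% G and C and that of Sema3d 46.8%. The letters TATAAA, searched on both strands, start at base 223 of the Slit2 stretch and are not in that of Sema3d. ATTAAT and TGACGTCA, searched in the same way, are in neither. TATAAA is held by 12.4% of all 32851 RefSeq promoter stretches of this length, as do 8.78% of the 547 stretches of genes called higher here, 7.72% of the 674 of genes called lower and 6.08% of the 11897 of genes tested. A match is a description of letters only.

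List counts in this and the next paragraphs stand against 4.45% of all genes called higher and 5.06% called lower, with a median of 0.00. Of 37 axon guidance genes tested, 10 were higher and 10 lower, with a median log2 difference of -0.15. Higher members included Sema3e (169, 154, 210 and 211 CPM against 67.6, 84.3, 104 and 106), the ephrin receptor Epha5 (log2 difference 0.88) and Robo3 (0.55), a receptor that modulates responses to Slits. Lower members included Sema3c, at 2.65, 2.25, 2.98 and 3.54 CPM against 18.8, 17.8, 21.4 and 11.6, the ephrin receptor Epha3 (27.1, 38.2, 14.6 and 20.2 against 108, 96.2, 82.1 and 86.7), the semaphorin coreceptor Plxna4 (log2 difference -1.64) and the netrin receptor Dcc (-0.64). The Dcc call was lost in spliced counts (adjusted p = 0.935, edgeR) and with no plate block. Secreted cues of 1 family therefore differed in direction, with Sema3d and Sema3e higher and Sema3c lower. Of 24 cadherins and protocadherins, 8 were higher and 3 lower, with a median of 0.17. Pcdh19 was at 76.8, 94.4, 76.2 and 115 CPM against 33.5, 33.7, 38.1 and 40.5, and Pcdh9 at 1587, 2562, 2599 and 2464 against 693, 497, 1508 and 1732. Cdh20 was lower, at 2.65, 6.74, 9.33 and 12.6 CPM against 63.9, 66.8, 39.6 and 42.2. Pcdh19 thus did not overlap between the classes, while Pcdh9 on P4 plate 1 lay below the other neurons of P7 plate 2. Cdh3, a classical cadherin outside that list, rose by 2.39, and the fibrillar collagen gene Col5a3 by 2.43.

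Transmitter receptors were called in both directions. Htr5b, an inhibitory serotonin receptor (chromosome 1, 121509842 to 121528465), was at 45.6, 41.9, 47.8 and 67.7 CPM against 2.17, 7.06, 6.21 and 12.4 (log2 difference 2.92 ± 0.22 SE, adjusted p = 7.9e-07, edgeR). It had a UMI in 54.3% of the Gpr151-high wells, 9.14% of the other neuron wells and 1.1% of the non-neuron wells. Htr7, coupled to cAMP production, was lower at 1.98, 5.24, 2.61 and 9.10 CPM against 14.9, 17.1, 35.5 and 29.1. Of 6 serotonin receptors tested besides the marker, Htr5b alone was called higher, 2 were called lower, and the median was 0.02. Among 23 glutamate receptors 3 were higher and 9 lower, with a median of -0.35. Grm5, a metabotropic receptor, was lower at 185, 238, 136 and 215 CPM against 436, 428, 407 and 406. The classes did not overlap for Grm5. The NMDA receptor subunit Grin2a was at 198, 232, 282 and 283 CPM against 75.0, 78.7, 112 and 122 (1.38 ± 0.08 SE, adjusted p = 3.3e-08). Grin3a rose by 0.58, a call lost with DESeq2 and without P7 plate 1 or P7 plate 2, and Grm8 fell by 1.20. Of 13 GABA receptor genes, 2 were higher and 2 lower (median 0.07): Gabra2 was at 322, 365, 404 and 398 CPM against 134, 122, 218 and 227, and Gabrb1, which overlaps Gabra4, rose by 0.70.

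Downstream of such receptors, the G protein list had 5 higher and 1 lower of 20 tested (median 0.01). Gng8 was at 450, 514, 557 and 552 CPM against 308, 261, 371 and 401 (log2 difference 0.65), and Gnaz, an inhibitory alpha subunit that overlaps Rsph14, at 113, 112, 133 and 148 against 77.0, 60.5, 65.5 and 76.4 (0.87). Both were higher on all 4 plates. Gnas, the stimulatory alpha subunit, rose by 0.27 in a locus it shares with Nespas. Gng3, which overlaps Bscl2, fell by 0.26, a call lost without P4 plate 1 or P7 plate 1 and reversed in unspliced counts. RGS proteins, which shorten G protein signals, had 5 higher and 1 lower of 13 (median 0.02). Rgs10 was at 133, 130, 126 and 109 CPM against 64.4, 60.1, 49.5 and 52.9, and Rgs4 at 110, 92.9, 161 and 191 against 31.6, 25.6, 84.0 and 103. Rgs20 fell by 1.72. Of 22 genes of cAMP synthesis and breakdown 4 were higher and 4 lower (median -0.28), among them the phosphodiesterases Pde1a (log2 difference 0.51) and Pde4b (-0.97). Prkch, a protein kinase C isoform, rose to 101, 77.9, 91.4 and 98.0 CPM from 17.9, 21.2, 20.3 and 22.4.

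Ion channels and release genes were mixed as well. Of 36 potassium and HCN channel genes 6 were higher and 10 lower (median -0.03). Kcnmb4, the neuronal accessory subunit of the large-conductance calcium-activated potassium channel, was at 139, 139, 167 and 184 CPM against 38.1, 43.4, 35.8 and 44.4 (log2 difference 1.97 ± 0.10 SE, adjusted p = 1.4e-08, edgeR). It overlaps 2 antisense models of its own. Kcnd3, of the A-type channels, rose by 0.82 and the leak channel gene Kcnk2 fell by 1.8. The cation channel gene Trpc4 was at 54.9, 95.1, 76.5 and 65.7 CPM against 16.4, 17.8, 16.5 and 15.0. Of 32 genes of synaptic vesicle release 2 were higher and 11 lower (median -0.09). The active-zone scaffold gene Bsn rose by 0.80, while the priming factor gene Unc13c was at 18.5, 18.0, 26.5 and 21.2 CPM against 73.4, 48.6, 156 and 174. Lower calls in this list outnumbered higher ones by 11 to 2, where over all genes they were 635 to 559. Sodium and calcium channels had 4 higher and 3 lower of 26.

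**Figure D3:**
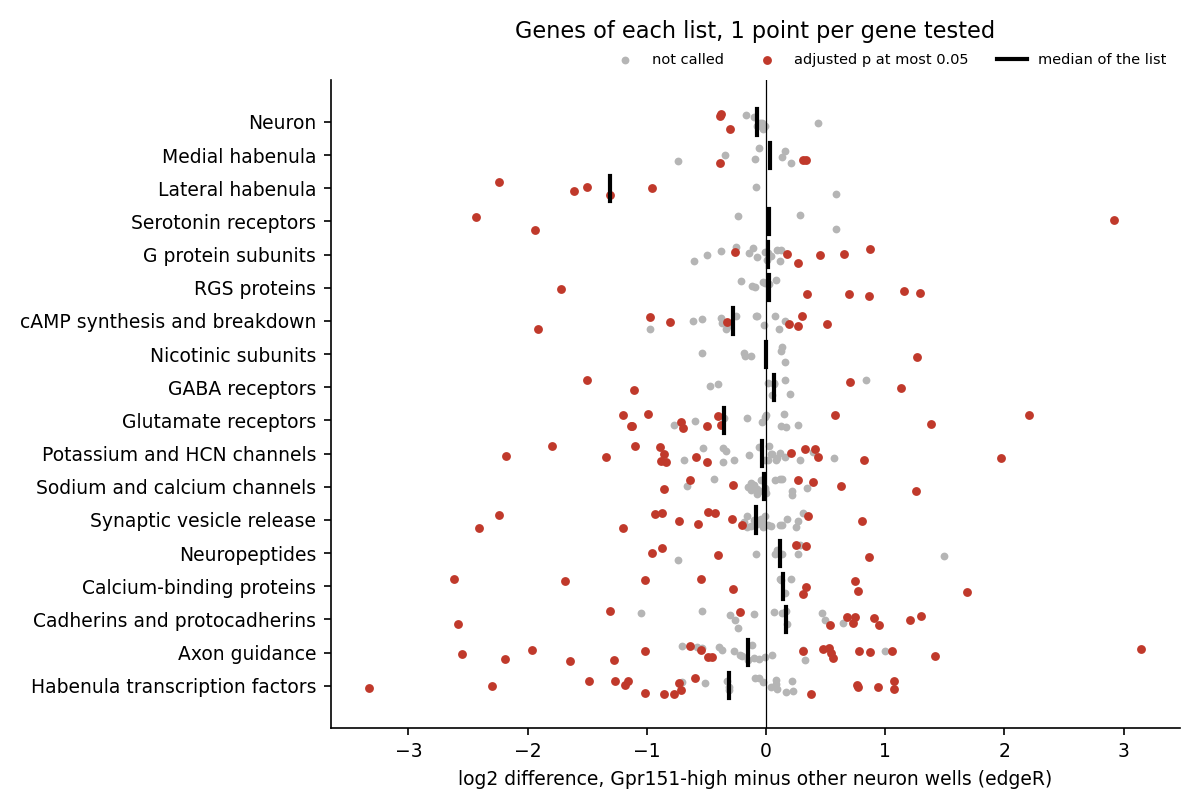
Log2 difference between Gpr151-high and other neuron wells (horizontal axis, edgeR) for each tested gene of 18 lists; red points passed an adjusted p of at most 0.05, grey points did not, and black bars are list medians, all without the 4 proposed markers. The lateral habenula list has its median at -1.31 and the medial list at 0.04.

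Slc17a6, a vesicular glutamate transporter, was at 525, 569, 577 and 546 CPM against 532, 535, 585 and 556 (log2 difference 0.02, adjusted p = 0.93, edgeR), and Pou4f1, the factor that carries the reporter, at 506, 551, 395 and 399 against 519, 511, 453 and 482 (-0.09, adjusted p = 0.55). Of the 10 genes of the medial list 2 were higher and 1 lower, that is 30% called against 9.51% of all genes. Nwd2 rose by 0.31 and Tac2, which encodes neurokinin B, by 0.34. The Tac2 call was lost in 8 of 19 alternative settings, among them other Gpr151 thresholds, wells of the same depth range, and the fits without P4 plate 1 or P7 plate 1. Chat, which makes acetylcholine, was at 54.2, 60.7, 56.4 and 50.5 CPM against 74.1, 93.2, 68.8 and 59.4 (-0.38). That call was lost in 11 of 19 settings, among them DESeq2 and the fits without P4 plate 1, P4 plate 2 or P7 plate 1, and Chat overlaps Slc18a3. Tac1, the substance P precursor, was at 30.4, 66.7, 77.7 and 83.4 CPM against 63.3, 14.1, 203 and 219, with an adjusted p of 0.30. The nicotinic subunit Chrna4 was called higher (35.1, 24.7, 67.2 and 65.2 against 16.9, 16.9, 21.0 and 24.3), the only one of 8 tested; Chrna3 was at 496, 422, 439 and 466 against 402, 468, 383 and 397. Scg2, a secretogranin, was at 106, 109, 198 and 263 CPM against 47.3, 47.8, 128 and 167, and of 14 neuropeptide genes 3 were higher and 3 lower.

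The lateral habenula list contained no higher gene and 5 lower ones of 7 tested, with a median of -1.31. Chrm3, a muscarinic receptor, was at 47.6, 57.7, 47.8 and 76.8 CPM against 160, 126, 217 and 192, and Pcdh10 at 15.2, 25.5, 9.70 and 20.7 against 39.6, 34.7, 49.9 and 43.3. Syt2, a synaptotagmin, fell by 2.24 and Vgf by 0.96. No Gpr151-high well held 5 or more counts of Gad1, the enzyme that makes GABA, against 8, 0, 28 and 24 other neuron wells. Gad1 was at 1.32, 0, 4.85 and 5.05 CPM against 40.4, 0.605, 122 and 144, so P4 plate 2 had almost none in either class; it overlaps Gad1os. In the other neurons with fewer than 3 Cck counts Gad1 was at 38.1, 0, 67.7 and 42.3 CPM. The fall in Gad1 was 4.72 on the log2 scale (adjusted p = 1.2e-09, edgeR). Neurod6 (6.62, 3.74, 1.49 and 2.53 against 42.9, 47.2, 26.8 and 23.2) and Bhlhe22 fell by 3.33 and 2.44. Mical2, Ccbe1, Car2 and Cntnap5a fell by 2.72, 2.57, 2.39 and 2.36. With Gad1, Cdh20, Htr7 and Unc13c this completes the 10 largest falls among genes that met the naming rule given at the end.

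Of 33 listed transcription factors 6 were higher and 12 lower (median -0.31), against 4.45% and 5.06% of all genes. Etv1 (chromosome 12, 38779380 to 38870484), an ETS factor, was at 1939, 2025, 1781 and 1575 CPM against 902, 1380, 675 and 684, and the LIM homeobox gene Lhx9 at 1085, 1035, 947 and 1024 against 632, 614, 544 and 629. Hopx rose by 0.94 and Nr4a2 by 0.38. Zfhx4, a zinc finger homeobox gene outside the list, was at 50.9, 54.7, 67.2 and 77.8 CPM against 10.6, 5.85, 7.07 and 13.6, although 56.0% of non-neuron wells held a UMI of it against 48.9% of Gpr151-high wells. Ebf3 was at 38.4, 44.9, 31.0 and 28.3 CPM against 206, 239, 143 and 130, and the LIM-only gene Lmo3 at 191, 175, 137 and 161 against 529, 622, 402 and 351. Neurod2 fell by 1.27, Prox1 by 1.18 and Nfib by 0.78. For Ebf3 and Lmo3 all 4 plates of the Gpr151-high wells lay below all 4 of the other neurons. Calcium-binding proteins had 5 higher and 5 lower of 14: Calb1, calbindin, rose by 1.69 and Pcp4 by 0.75, while Pcp4l1 fell by 1.68 and Vsnl1 by 2.62. The cytoskeletal adaptor gene Phldb2 rose by 2.25.

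The Gpr151-high wells were themselves heterogeneous, as Oprm1 showed. Of the 317 wells 130 held at least 5 Oprm1 counts (22, 25, 45 and 38 by plate), 84 held 1 to 4, and 103 held none (28, 21, 31 and 23). The division and the genes named with it were chosen after their values were seen, so they are described without a test. Calb1 was at 324, 507, 357 and 469 CPM in the wells with at least 5 Oprm1 counts and at 41.6, 11.6, 19.8 and 50.3 CPM in those with none. Calb2, calretinin, was at 574, 815, 920 and 1201 CPM against 32.5, 43.0, 125 and 115, and the forkhead factor Foxp2 at 735, 650, 639 and 650 against 124, 57.9, 80.3 and 140. Slit2 was at 1592, 1640, 1951 and 1734 CPM against 524, 504, 603 and 677. Gpr151, which chose the wells, was at 739, 605, 930 and 981 CPM against 365, 423, 518 and 555. Its floor of 5 counts is a higher CPM in shallower wells. The Oprm1-rich wells were the shallower ones, as given below, so the rule itself partly set this direction. For Calb1, Calb2, Foxp2 and Slit2 the lowest plate of the first group exceeded the highest of the second. They were chosen by these values, and the share of all genes that separate in this way is not given here.

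Other genes ran the opposite way along Oprm1. Ebf1 was at 73.8, 42.6, 89.9 and 59.6 CPM in the wells with at least 5 Oprm1 counts and at 310, 330, 397 and 379 CPM in those with none. Nfib was at 105, 66.0, 89.9 and 58.2 against 340, 557, 390 and 271, and the nicotinic subunit Chrnb3 at 9.52, 19.1, 29.9 and 34.9 against 159, 134, 273 and 222. Wells with 1 to 4 Oprm1 counts lay between for Calb1 (105, 49.8, 71.3 and 136 CPM) and for Ebf1 (186, 326, 253 and 220 CPM), each with single plates that reach an end group. Htr4 was at 102, 115, 148 and 124 CPM against 107, 141, 195 and 149, and Pou4f1 at 414, 460, 372 and 402 against 545, 645, 420 and 401. Depth moved with the division: median counts per well were 17698, 17233, 17949 and 18556 with at least 5 Oprm1 counts and 25215, 27594, 30239 and 29064 with none, so the Oprm1-rich wells were the shallower ones. Its part in these differences was not tested.

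**Figure D4:**
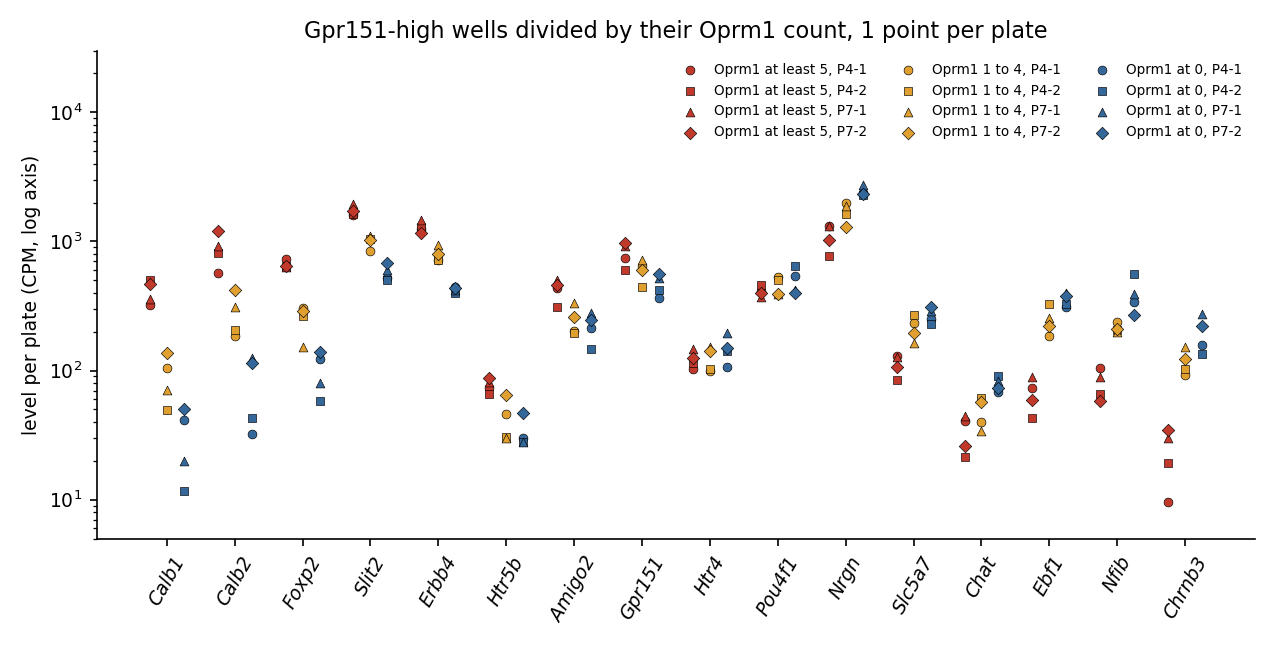
Levels in CPM (log axis) of 16 genes in Gpr151-high wells with at least 5 (red), 1 to 4 (yellow) or 0 (blue) Oprm1 counts; each point is a plate. Calb1, Calb2, Foxp2 and Slit2 fall from red to blue, Ebf1, Nfib and Chrnb3 climb, and the Htr4 points of the groups overlap.

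Well by well, 82 of the 100 wells with at least 5 Calb1 counts also had at least 5 Oprm1 counts, which is 63.1% of the 130 Oprm1 wells. At least 5 counts were seen for Slc17a6 in 279 of the 317 wells, Tac2 in 177, Calb2 in 174, Slc17a7 in 128, Slc5a7 in 116, Chat in 31 and Tac1 in 28. No well had at least 5 counts of both Chat and Tac1. Only 9.78% and 8.83% of the wells reached that count, so few with both would be met even if the genes were unrelated. The count of 0 therefore does not show that they exclude each other. Of the 31 Chat wells 24 had at least 5 of Tac2, and of the 28 Tac1 wells 18 had at least 5 of Oprm1. Within a plate, Spearman's rho of CPM with Gpr151 across the group was 0.32 to 0.62 for Oprm1, 0.33 to 0.46 for Calb1, -0.16 to -0.03 for Htr4 and -0.35 to -0.18 for Chat. These are across 58 to 106 wells that share a library and the threshold on Gpr151, and are descriptions only.

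Few genes were called between P4 and P7 in the Gpr151-high wells. Of 11386 tested, 89 (0.782%) passed the edgeR test between the 2 plates of each stage, 60 higher (0.527%) and 29 lower (0.255%). At an unadjusted p under 0.05 there were 1492, and for 5018 (44.1%) the plates of the 2 stages did not overlap. The 4 proposed markers were not among the 89. The count depended on single plates, at 306 without P4 plate 1, 269 without P4 plate 2, 136 without P7 plate 1 and 142 without P7 plate 2. Of the 30 genes named below, 10 were called in every setting in which they were tested: Scg2, Npas4, Chrna4, Dgkk, Lncpint, Mex3a, Cd24a, Stmn1, Islr2 and Cbfa2t3. Of up to 16 settings, Dgkk was tested in 14 and the others in 15. The plates also differed in sex-linked genes. In the Gpr151-high wells Xist, which is expressed from the inactive X chromosome, was at 502 and 0 CPM on the P4 plates and 135 and 1.01 on the P7 plates, and the Y-linked Ddx3y at 0 and 77.9 and then 61.9 and 82.4. P4 plate 1 thus held Xist without Ddx3y, P4 plate 2 the reverse, and P7 plate 1 both. The part of this in the stage difference was not tested, and stage and the preparation of its plates cannot be told apart.

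In the neuropeptide list 4 of 14 genes were higher and none lower, where 0.527% of all genes were called higher, with a median of 0.59 against 0.00 over all genes tested. Tac2 (chromosome 10, 127724478 to 127731768) was at 342 and 151 CPM at P4 and 800 and 705 at P7 (log2 difference 1.61 ± 0.24 SE, adjusted p = 0.0056, edgeR), and 182 of the 194 wells at P7 held a UMI; with DESeq2 the call of Tac2 was lost (adjusted p = 0.14). Scg2 was at 106 and 109 against 198 and 263, and Pcsk1, a proprotein convertase, at 26.5 and 33.7 against 69.4 and 89.5. Th, tyrosine hydroxylase, was at 15.2 and 22.5 CPM against 63.8 and 54.6. The calls of Pcsk1 and Th were lost with at least 10 Gpr151 counts, and that of Pcsk1 also in spliced counts. Sst, somatostatin (chromosome 16, 23889573 to 23890958), was at 7.28 and 7.49 CPM against 133 and 215, the largest fitted rise (4.54). Yet 82.7% of the P7 counts of Sst lay in 3 of 194 wells, the highest with 339 counts. All 6 wells with at least 5 Sst counts were at P7. Without them, a choice by the count of the gene itself, the Sst rise was 0.66 ± 0.43 SE (adjusted p = 0.55, edgeR). The serotonin receptor gene Htr2c (0.661 and 2.99 against 27.7 and 34.4) had 50.0% of its P7 counts in 3 wells. Without the 6 wells of at least 5 Sst counts, a choice made after seeing the data, its rise was 2.53 ± 0.66 SE with an adjusted p of 0.091 in edgeR, while the kinase gene Dgkk rose by 2.68 (adjusted p = 0.025) and Th by 1.40 (adjusted p = 0.024).

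Of 16 immediate early and heat-shock genes 3 were higher and none lower (median 0.53), against 0.527% of all genes higher and 0.255% lower. Npas4 was at 54.9 and 53.9 CPM at P4 and 130 and 148 at P7, Fos at 322 and 236 against 430 and 626, and Arc at 9.92 and 24.7 against 53.8 and 43.5. The Fos call was lost with DESeq2 (adjusted p = 0.158), and that of Arc without P4 plate 1 and with at least 10 Gpr151 counts. Such genes also respond to tissue handling, and dissociation times are not given; the 2 cannot be told apart. The nicotinic subunit Chrna4 (35.1 and 24.7 against 67.2 and 65.2), the G protein regulators Rgs4 (110 and 92.9 against 161 and 191) and Rgs7bp (38.4 and 62.2 against 91.1 and 109), and the calcium-binding genes Necab3 (96.6 and 94.4 against 249 and 197) and Calb2 (216 and 347 against 461 and 621) rose as well. Of these calls Rgs7bp was lost without P4 plate 1, Rgs7bp, Rgs4 and Calb2 with at least 10 Gpr151 counts, Calb2 also with DESeq2 (adjusted p = 0.373), Rgs7bp in spliced and Necab3 in unspliced counts. Cplx1, complexin, rose by 0.77, a call lost without P7 plate 1. The remaining largest rises were Per3 (2.15), Omg (1.94), Wfikkn2 (1.57) and Lncpint (1.56). Omg, which lies within Nf1, was lost without P7 plate 2 and Wfikkn2 without P7 plate 1. Cplx1, Per3, Omg and Wfikkn2 were also lost with at least 10 Gpr151 counts, and Per3 in spliced counts.

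Falls reached 1.65 on the log2 scale. Mex3a, an RNA-binding protein gene (chromosome 3, 88532395 to 88541396), was at 87.3 and 95.1 CPM at P4 and 24.6 and 33.9 at P7 (log2 difference -1.65 ± 0.20 SE, adjusted p = 0.0021, edgeR). Cd24a was at 86.0 and 113 against 29.9 and 38.4, the tubulin-binding Stmn1 at 80.7 and 86.9 against 30.2 and 35.4, and the matrix proteoglycan gene Vcan at 104 and 109 against 44.4 and 41.4. Cntn4, an axonal contactin, was at 101 and 187 CPM against 41.9 and 50.0. Islr2 fell by 1.33, Dscaml1 by 1.29, Cbfa2t3 by 1.25, Enpp2 by 1.28 and Trim67 by 1.25, the call of Enpp2 being lost without P7 plate 1 and that of Trim67 without P7 plate 2. The median log2 difference was -0.14 over 35 axon guidance genes, -0.27 over 32 transcription factors and 0.27 over 33 potassium and HCN channel genes.

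Whether the difference between Gpr151-high and other neurons itself changed with age was asked with the class by stage term of the edgeR fit. Of 13389 genes 56 (0.418%) were called, 12 with a log2 difference (Gpr151-high minus other neurons) that was larger at P7 (0.0896%) and 44 with one that was smaller (0.329%). Calb1 (chromosome 4, 15881264 to 15908064) was at 134 and 194 CPM at P4 and 155 and 237 at P7 in the Gpr151-high wells, while the other neurons went from 23.6 and 18.4 to 89.9 and 129 (change of the log2 difference -2.11 ± 0.21 SE, adjusted p = 3.4e-05). Robo2, Plxna2, Pcdh9 and Cdh12 behaved alike, with changes of -1.56, -1.29, -1.12 and -1.69. In these genes the level moved in the other neurons more than in the Gpr151-high wells. Among those other neurons, wells with at least 3 Cck counts numbered 4 of 201 and 3 of 245 on the P4 plates and 49 of 186 and 52 of 189 on the P7 plates, that is 1.99%, 1.22%, 26.3% and 27.5%. The rule keeps such wells out of the Gpr151-high group at both ages.

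With the Cck wells left out, which was decided after seeing the data, 4 genes were called instead of 56, and 3 of the 56 were among them. Calb1 in the remaining other neurons was at 20.5, 14.8, 19.3 and 40.5 CPM, and its change was -0.44 (adjusted p = 0.98). Pcdh9 turned to 0.14, and Robo2, Plxna2 and Cdh12 stood at -0.28, -0.20 and -0.05. Kcnip4, Ephb1, Ebf1 and Dcc went from -1.12, -1.01, 0.60 and 0.57 to -0.54, -0.43, 0.25 and 0.31. Grin3a, Htr2c and Dgkk lost their calls with little change in size, from 0.70, 3.48 and 3.83 to 0.72, 3.35 and 3.84. Enpp2, Rab3b and Rgs4 lost theirs in going from -1.42, -1.16 and -0.90 to -1.12, -0.88 and -0.71. A lost call was thus not always a lost difference. Col25a1 in the remaining other neurons was at 198, 153, 146 and 181 CPM and Oprm1 at 34.8, 13.1, 35.3 and 39.6, both far below the Gpr151-high wells at each age. Cntn4 was also the 1 gene of 18 named in this comparison that was called in every alternative setting. The genes called both with and without the Cck wells were Cntn4 (-2.77 and -2.13), Slit2 (0.66 and 0.81) and Sst (4.80 and 4.63). Cntn4 in the other neurons was at 117 and 96.1 CPM at P4 and 220 and 256 at P7, while in the Gpr151-high wells it fell. Slit2 in the other neurons was at 486 and 414 CPM at P4 and 357 and 367 at P7, and in the Gpr151-high wells at 890 and 1011 and then 1220 and 1185. The Slit2 call was lost with DESeq2 and in spliced or unspliced counts alone, and the P7 counts of Sst in the Gpr151-high wells lay mostly in 3 wells. The number called also moved with single plates, to 250 without P4 plate 1 and 91 without P7 plate 1.

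**Figure D5:**
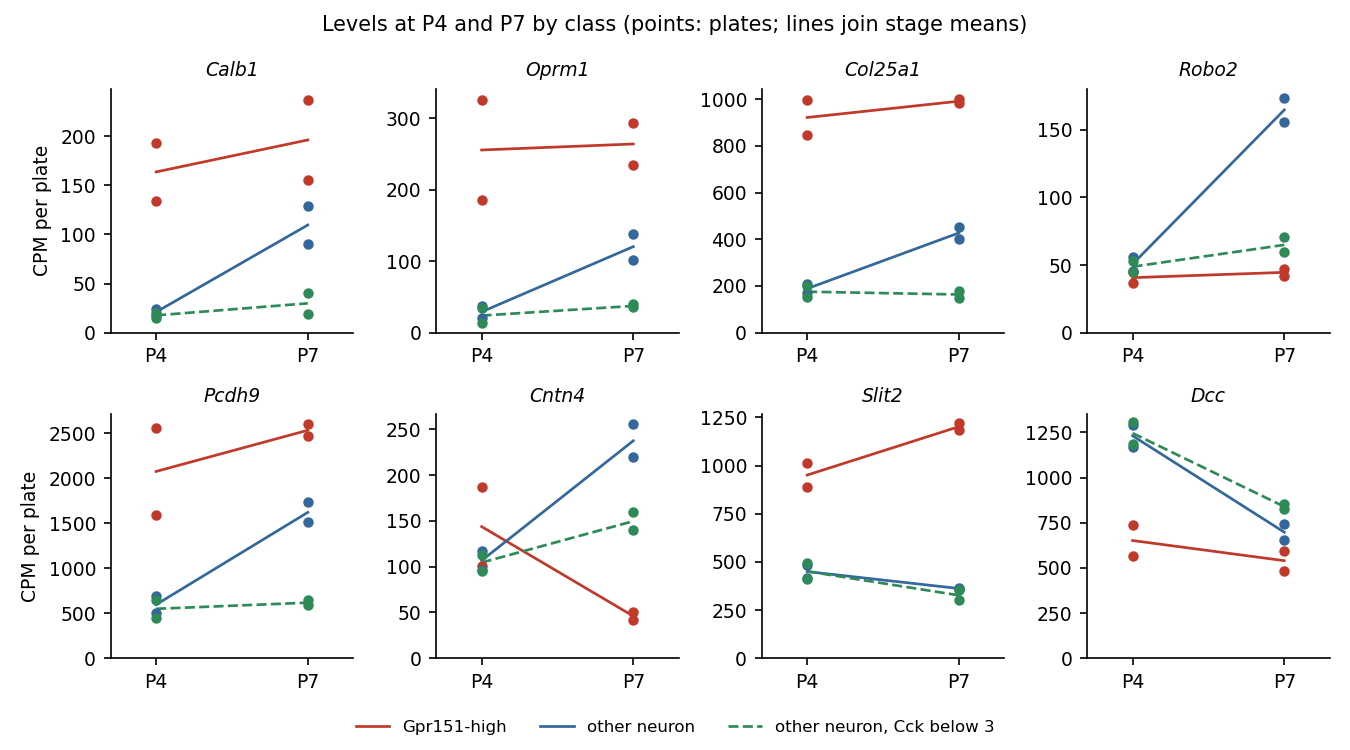
Levels in CPM per plate at P4 and P7 of 8 genes in Gpr151-high wells (red), other neuron wells (blue) and other neuron wells with fewer than 3 Cck counts (green, dashed); points are plates and lines join stage means. The blue lines of Calb1, Oprm1, Robo2 and Pcdh9 climb from P4 to P7, whereas the green lines stay low; Cntn4 and Slit2 part between the classes in either case.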

How the data were processed

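Reads were processed by the authors; the submitters' processing notes name Trim Galore, STAR 2.5.3a and the build mm10. The counting program and annotation were not given in the sources used here. Deposited tables hold expected counts per gene and well: UMI counts that the authors corrected for collisions, since 100% of the values became whole numbers (within 1e-06) when the correction for 4096 possible UMIs was inverted. Plain counts had been planned for, so the sums of the deposited expected counts over the wells of a class on a plate were rounded to whole numbers before testing. Plate totals were 5896900, 6521400, 7760400 and 5687000 counts. Sums were tested with edgeR 4.0.16 in R 4.3.3 (quasi-likelihood, TMM scaling, Benjamini-Hochberg adjustment, threshold 0.05), with the plate as a block between classes, after tests on simulated data. No doublet caller was run. Wells were summarised with Python 3.11.15 and pandas 2.3.3.

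The members, gene lists and tests were chosen with earlier results of these data known. Genes named were, in each comparison, the 10 largest rises and 10 largest falls among genes with an adjusted p of at most 0.05, the same direction on all 4 plates (for stages, no overlap) and at least 20 CPM in the higher mean, leaving out Gpr151, Cck, mitochondrial, spike-in and Gm or Rik genes, and any gene of the lists. Some genes that met this rule are not reported here. Coordinates are GRCm38 from GENCODE M21, which matched 37952 of 37994 gene rows; upstream sequences are from RefSeq. Alternatives were DESeq2 1.42.0, other filters, spliced or unspliced counts, other thresholds and leaving out plates. Replicate numbers did not pair P4 with P7 plates (correlation of deviations 0.00212 over 11386 genes).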

Additional observations from a re-analysis of the deposited data

Results flagged for a closer look

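In 18 named genes the difference between Gpr151-high and other neurons changed between P4 and P7 by the class by stage test (edgeR, adjusted p at most 0.05). The log2 change was -2.77 for Cntn4, -2.11 for Calb1, -1.69 for Cdh12, -1.56 for Robo2, -1.42 for Enpp2, -1.29 for Plxna2, -1.16 for Rab3b, -1.12 for Pcdh9, -1.12 for Kcnip4, -1.01 for Ephb1 and -0.90 for Rgs4. It was 0.57 for Dcc, 0.60 for Ebf1, 0.66 for Slit2, 0.70 for Grin3a, 3.48 for Htr2c, 3.83 for Dgkk and 4.80 for Sst. Of these 18 genes 1, Cntn4, was called in every alternative setting, 16 were lost in at least 1 and Pcdh9 reversed in 1. Without other neurons that held at least 3 Cck counts, Sst, Slit2 and Cntn4 were still called, but Slit2 was lost with DESeq2 and in spliced or unspliced counts alone. Sst was lost in 1 setting alone, which left out wells by their Sst count and so bears on the measured gene itself. Ebf1 was lost in 11 of 18 settings, Enpp2 in 10 of 18, and Dgkk and Htr2c in 10 of 17 each.

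Wells meeting the rule also appeared on plates that the comparisons did not use, above the limit that a count of 0 allows. There were 6 on E15 plate 2, 8 on adult plate 1, 123 on adult plate 2, 15 on the E18 both-sides plate, 33 and 6 on the E18 left plates, and 19 and 8 on the E18 right plates. The other 2 plates of E18 held none, 0 of 267 and 0 of 110 kept wells. Counting error alone allows shares of up to 1.12% and 2.73% (exact Clopper-Pearson upper ends 1.37% and 3.30%). These 2 plates were shallow, with median depths of 8548.5 and 8240.6 counts, against 16405 to 28236 on the E18 left, right and both-sides plates. Other neuron wells made up 91 of the 267 and 100 of the 110. As the rule is a count threshold, these limits do not bound the share of Gpr151-high neurons. E15 plate 2 and adult plate 1, which held 6 and 8 such wells, had median depths of 8132.8 and 4408.2 counts. The part of depth, stage or cell make-up in these counts was not tested. As shares of kept wells the plates listed first had, in that order, 1.99%, 14.3%, 36.0%, 4.50%, 11.7%, 11.1%, 6.81% and 6.02%. The plates differed in make-up: other neuron wells were 11 of 56 kept wells on adult plate 1 and 58 of 342 on adult plate 2. Shares of kept wells are thus not shares of neurons. E13 plates 1 and 2 held 1 such well each and are not in that list.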

How the results depend on the processing

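Against all other kept wells (1596 genes called) the count was 1039 with DESeq2, 540 in unspliced counts, 879 with no plate block and 948 to 1797 leaving out 1 plate. Against other neurons (1194) it was 747, 435, 575 and 684 to 1363. Between stages (89) it was 338 with no low-count filter, 15 in unspliced and 202 in spliced counts, 136 without very deep wells, 276 and 47 with at least 3 and 10 Gpr151 counts, 181 with Cck at 0, and 136 to 306 leaving out 1 plate; the replicate block gave 90. For the change of the class difference (56) it was 11 with DESeq2, 150 with no filter, 33 unspliced, 21 spliced, 34 without deep wells, 157 and 23 with at least 3 and 10 Gpr151 counts, 4 without Cck wells, and 41 to 250 leaving out 1 plate. The share at P4 (20.3%) was 26.7% and 12.0% at those thresholds and 4.60% after thinning; that at P7 (31.2%) was 36.9%, 22.5%, 25.7% with Cck at 0, 13.7% thinned and 34.0% of neuron wells. Gng3 reversed to 0.13 in unspliced counts and Pcdh9 to 0.14 without Cck wells. Of 71 named genes against other neurons 49 were called in every setting in which they were tested. The same held for 10 of 30 between stages and 1 of 18 for the change of the class difference. A gene without an adjusted p in a setting was not counted there. The causes were not tested. The rule is a count threshold, and the shares at both stages were lower after thinning to 5000 UMIs. The part of depth in the difference between stages was not tested.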

Other observations

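On plates outside P4 and P7 with at least 15 wells meeting the rule, genes called higher at P4 and P7 were higher in those wells than in other neuron wells in 69.8% of cases on adult plate 2, 74.4% on E18 left plate 1, 78.3% on E18 right plate 1 and 73.5% on the E18 both-sides plate. Over all genes the shares were 47.7%, 44.9%, 42.3% and 44.2%, and for genes called lower 21.7%, 23.6%, 15.6% and 18.1%. Of the 10 largest rises 9 were higher on each of the 4 plates. Of the proposed markers, Col25a1 in adult plate 2 was at 647 CPM in those wells and 719 CPM in the other neuron wells, and Oprm1 at 386 and 353 CPM, whereas Amigo2 was at 463 and 276 and Htr4 at 124 and 67.6. On the 3 E18 plates all 4 markers were higher in the wells meeting the rule. These are single plates and are described without a test.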
